A study of Arabidopsis thaliana with 16 samples.

Results

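The chloroplast of Arabidopsis thaliana carries its own small genome, and its protein-coding genes were followed here across 16 Affymetrix ATH1 arrays of whole seedlings. A gene was taken when its probe set was annotated to 1 plastid-encoded gene and read a log2 value of 4 or more on at least 3 arrays. Of 69 plastid loci with such a probe set, 62 met that minimum, out of 7293 loci of all genomes that did so under a listed gene. The 7 loci below it were psaC, ndhG, psbB, petD, ndhF, rpoB and rps14. Just outside the minimum lay psbB, with 2 arrays at or above 4 and a highest value of 4.64. Just inside it lay psbN with 8 such arrays, and psbT and ndhK with 9 each. No locus had a second probe set, so no choice between probe sets was made.

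The seedlings were in the Col-0 background, grew under continuous light on plates with hygromycin, and at 2 weeks of age went onto fresh plates for 3 or 6 days, either with 20 µM estradiol or with none. The 3 amiR-tor lines (9, 17 and 20) carried an artificial microRNA against the TOR kinase behind an estradiol-inducible promoter, and controls carried the empty vector pER8. Each line gave 1 array per condition, which makes 3 arrays in each of the 4 amiR-tor conditions, while the empty vector had a single array in each of its 4. The sample titles set these groups, since the series title names another gene and every sample description mentions the empty vector. No probe set was listed for TOR, so its silencing was not checked. The labels do not say whether a line came from 1 transformant or from separate cultures. Except where lines are compared with each other, a p-value thus measures the spread between the lines, which may be technical. Where they are compared, it measures how the difference between lines varies over the 4 amiR-tor conditions. Markers of both organs were present: RCA, the activase of Rubisco in green tissue, read 14.41 to 14.68, and the root gene PYK10 read 13.08 to 13.70. In whole seedlings fewer green cells and less plastid RNA per cell cannot be told apart.

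The plastid genome encodes core proteins of both photosystems, the cytochrome b6f complex, the ATP synthase and the NDH complex, the large subunit of Rubisco, part of the plastid ribosome and the core of a bacterial-type RNA polymerase. The other subunits are encoded in the nucleus and imported. Plastid genes are largely transcribed together in clusters with their neighbours, by that polymerase and by a phage-type enzyme from the nucleus, and the long transcripts are then cut, trimmed and spliced. Plastid messages mostly lack the long poly(A) tails of nuclear ones, while the labelling kit used here primes from such tails. The values below are therefore levels of plastid RNA as this labelling captured it.

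The arrays were of 2 kinds by a control probe set for 25S ribosomal RNA. It read 5.27 to 6.66 on 6 arrays, namely those of line 9 with estradiol and those of lines 17 and 20 at 3 days. On the other 10, which include all 4 empty-vector arrays, it read 11.38 to 11.99. The actin control at the 5′ end minus that at the 3′ end was -10.39 to -4.47 on the low-25S arrays and -1.92 to -1.43 on the high-25S arrays. Array medians over all probe sets were 5.60 to 5.68. The median over the 62 plastid genes was 7.42 to 9.71 on the low-25S arrays and 8.23 to 10.79 on the high-25S arrays, so the ranges of the kinds overlapped. The lowest of both ranges were the 6 day arrays of line 9, at 7.42 with estradiol and 8.23 without it. The 9 other high-25S arrays read 9.82 to 10.79.

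**Figure D1:**
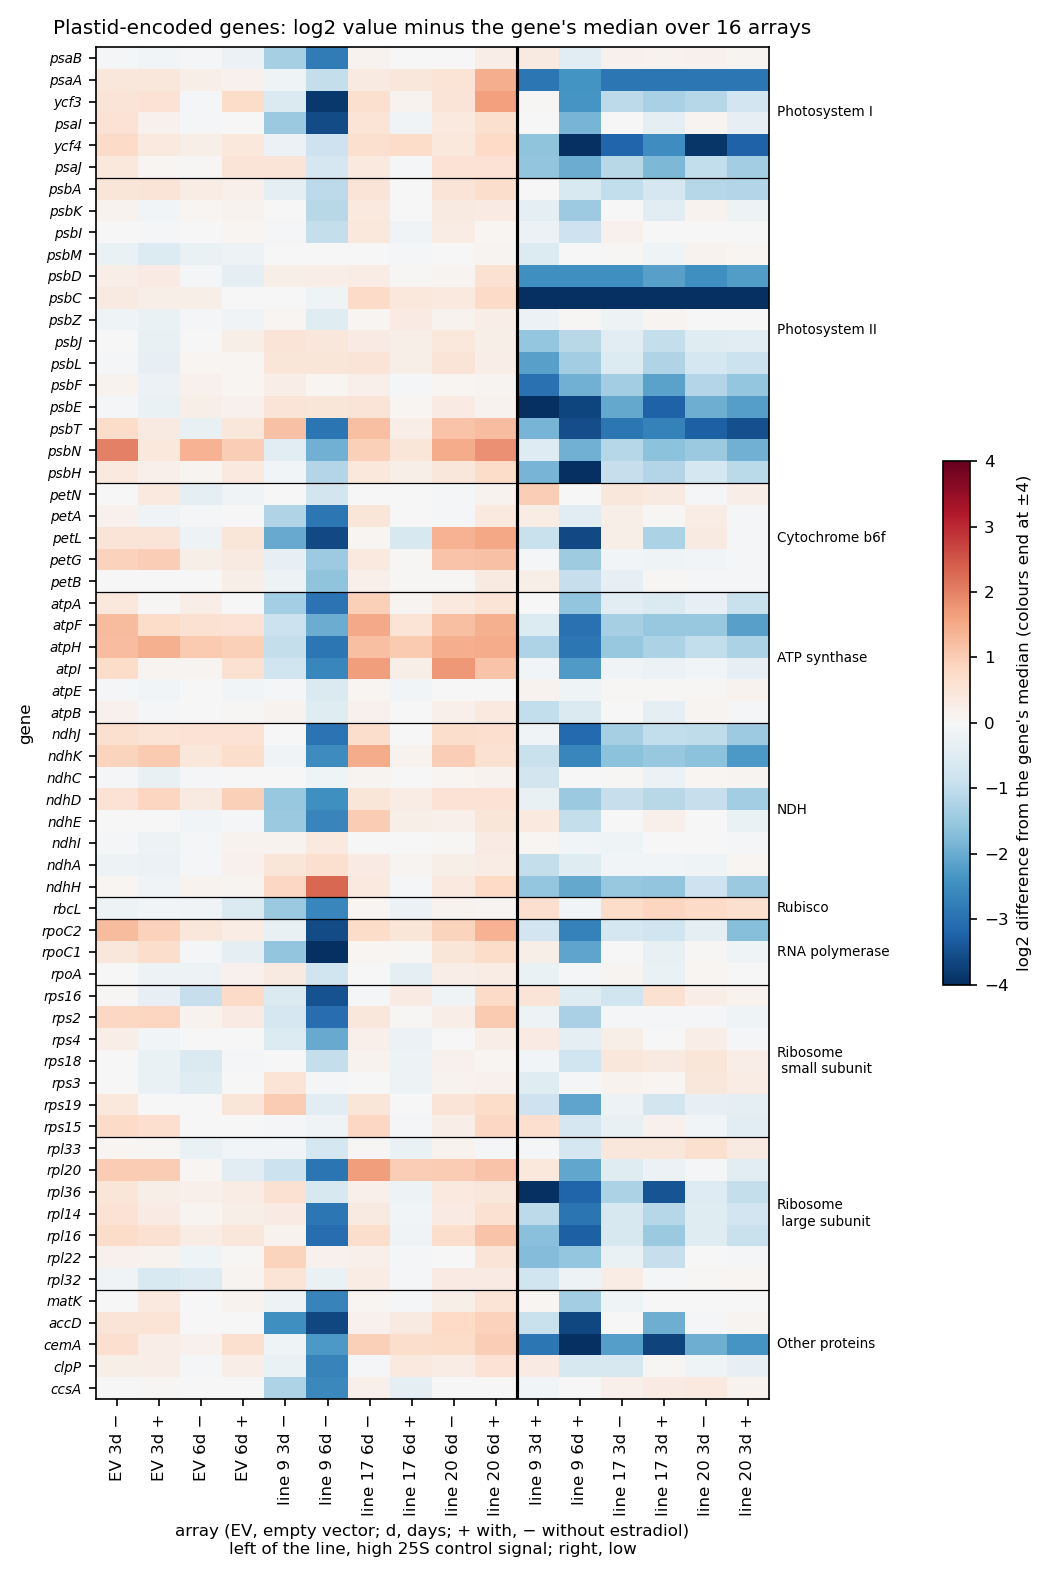
Each row is a plastid-encoded gene grouped by complex, each column an array, and the colour is the log2 value minus that gene's median over the 16 arrays, with colours ending at 4 either way. The low-25S arrays right of the line show the dark stripes of psbC, psaA, psbD and ycf4, and the array of line 9 at 6 days without estradiol is dark through most complexes.

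The kind of array was the comparison in which single plastid genes passed the test. Of the 62 genes, 12 were lower on low-25S arrays and 0 were higher (19.4% of the genes, against 2.45% of the 13701 kept probe sets called lower, 0.993% called higher and 3.45% either way). The difference was the coefficient of the kind beside the group means, in limma with Benjamini-Hochberg adjustment over all kept probe sets at 0.05. It rests on the 3 day group without estradiol and the 6 day group with it, where line 9 is of the other kind than lines 17 and 20. Line 9 is on the high side in the first and on the low side in the second. The median difference over the genes was -0.80, against 0.06 over all kept probe sets, and 52 of the 62 differences were below 0. Of the 12, 6 reached a log2 value of 4 on fewer than 3 low-25S arrays and so met the minimum with the help of the arrays on which they are high. For these 6 (psbC, psbD, psaA, ycf4, psbT and ndhH) the minimum favours a lower value on the low-25S arrays. The count of 12, its share and the median are thus a description in part fixed by that minimum. Met in the same way, psbN (adjusted p 0.231) and ndhK (adjusted p 0.202) were not called. The other 6 reached it on all 6 low-25S arrays and are among 54 of the 62 genes with at least 3 such arrays. The call rests on few arrays: without line 17 the count was 2 genes and without line 20 it was 3, with 0.117% and 0.46% of all kept probe sets called lower, and without line 9 the coefficient cannot be estimated. With the line as a block, 15 genes were called (6.15% of all kept probe sets either way): psbT lost its call and psbH, cemA, rpl22 and rpl36 gained one. By bare ranges over all 16 arrays, 10 of the 62 genes read lower on every low-25S array than on every high-25S array and 0 read higher, beside 5.85% and 3.66% of all kept probe sets. Of these 10, psbC, psbD, psaA, ycf4 and ndhH met the minimum with the help of the high-25S arrays. This count too is in part fixed by that minimum.

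Photosystem II genes made up 7 of the 12. Among these 7, psbC, psbD and psbT met the minimum with the help of the high-25S arrays. The inner antenna protein gene psbC read 3.35, 3.36, 3.46, 3.60, 3.60 and 4.82 on the low-25S arrays and 10.62 to 11.53 on the high-25S arrays, with a median of 11.08. The groups lay far apart, and the low values were near the floor of the scale, where differences are compressed. The difference for psbC was -7.62 ± 0.40 (SE, log2), with an adjusted p of 1.97e-05. Its neighbour psbD, which encodes a reaction-centre core protein, read 3.82 to 4.10 (median 3.82) against 5.90 to 6.88 (median 6.52), and differed by -2.73 ± 0.17 with an adjusted p of 3.3e-05. These were the 2 calls that held when either line 17 or line 20 was left out. Both genes are among those that met the minimum with the help of the high-25S arrays.

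The adjoining genes psbE, psbF, psbL and psbJ, which encode the subunits of the cytochrome bound in photosystem II and 2 small subunits, were all lower. The values of psbE were 7.0, 7.46, 7.90, 8.93, 9.09 and 9.19 on the low-25S arrays and 10.86 to 11.66 (median 11.34) on the high-25S arrays. The difference was -3.15 ± 0.44 for psbE (adjusted p 0.00495) and -1.75 ± 0.32 for psbF (adjusted p 0.0173). For psbL it was -1.37 ± 0.30 and for psbJ -1.15 ± 0.25, with adjusted p of 0.0374 and 0.037 (both lie outside the 10 largest and are named after their values were seen). None of the 4 overlapped between the kinds. The small subunit gene psbT was lower by -4.27 ± 1.0 on the log2 scale (adjusted p 0.0486, and 0.051 with the line as a block), and its kinds overlapped, because line 9 at 6 days without estradiol read 2.87 on a high-25S array.

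Other photosystem II genes did not pass, although psbH, at -2.72 ± 0.77 (adjusted p 0.0833), did with the line as a block (adjusted p 0.00298). The reaction-centre core gene psbA differed by -0.83 ± 0.45 (adjusted p 0.311), and the small subunit genes psbM and psbZ by 0.04 ± 0.17 and -0.23 ± 0.19. The gene psbM, highest in mean among the photosystem II probe sets, read 12.37 to 13.06 (median 12.96) on the low-25S arrays and 12.36 to 13.04 (median 12.88) on the high-25S arrays. Its ranges coincided.

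In photosystem I, 3 of 6 genes were lower. Of these, psaA and ycf4 met the minimum with the help of the high-25S arrays, so the count is in part fixed by it. The reaction-centre gene psaA read 2.36 on 5 low-25S arrays and 2.88 on the sixth, against 4.32 to 6.71 (median 5.66) on the high-25S arrays, a difference of -3.04 ± 0.39 (adjusted p 0.00352). The gene of its partner in the core, psaB, adjoins it and was not called. It read 12.31 to 13.12 (median 12.92) on the low-25S arrays and 9.97 to 13.05 (median 12.71) on the high-25S arrays, a difference of 0.46 ± 0.74 (adjusted p 0.765). The assembly factor gene ycf4 was lower by -4.08 ± 0.53 (log2, adjusted p 0.00352), at 2.86 to 5.33 (median 3.75) against 6.13 to 7.75 (median 7.38). The small subunit gene psaJ was lower by -1.89 ± 0.34 (adjusted p 0.0164), at 7.10 to 8.12 against 8.43 to 9.67. Neither overlapped between the kinds. Of the 12 called genes, psaA, psbT and ndhH read under 4 on every low-25S array.

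Outside the photosystems 2 genes were called. They were ndhH, a subunit of the NDH complex that carries electrons to plastoquinone, at -2.21 ± 0.50 (adjusted p 0.0433), and the small-subunit ribosomal protein gene rps19, at -1.89 ± 0.35 (adjusted p 0.0183). The values of ndhH were 2.41 to 3.65 against 4.34 to 6.77 and did not overlap. Those of rps19 were 10.05 to 11.95 against 11.74 to 13.18 and did. Of the 2, ndhH met the minimum with the help of the high-25S arrays. The other 7 NDH genes, the other 6 small-subunit genes and all 7 large-subunit genes did not pass. Under the block by line, rpl36 and rpl22 of the large subunit did, at adjusted p of 0.0476 and 0.0389. Median differences were -0.67 over the 8 NDH genes, -0.37 over the 7 small-subunit genes and -1.41 over the 7 large-subunit genes.

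The ATP synthase, cytochrome b6f and polymerase genes had no call for the kind of array. Their median differences were -0.81 over 6 genes, -0.58 over 5 and -0.46 over 3. Within the ATP synthase the spread was wide. The neighbours atpB and atpE, which encode catalytic-head subunits, differed by -0.44 ± 0.30 and -0.01 ± 0.19, while atpH, which encodes the membrane ring subunit, differed by -2.23 ± 1.14 and atpF, a stalk subunit, by -2.27 ± 0.99. None of these 4 passed the test, with adjusted p from 0.223 for atpF to 0.986 for atpE. The gene cemA, for an envelope membrane protein, had the largest difference of those that missed the threshold, at -3.75 ± 0.96 (adjusted p 0.0628, and 0.017 under the block by line).

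The positive end was led by rbcL, the large subunit of Rubisco, at 1.10 ± 0.72 (adjusted p 0.408). It read 9.08 to 10.04 (median 9.88) on the low-25S arrays and 6.58 to 9.32 (median 9.00) on the high-25S arrays. All but 1 of the low-25S arrays lay above every high-25S array. Across the 62 genes, the difference between the kinds' medians had a Spearman rho of 0.00 with gene length and 0.37 with the mean level on high-25S arrays. These are descriptions over genes that share the same 16 arrays, and the levels are those of different probe sets.

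**Figure D2:**
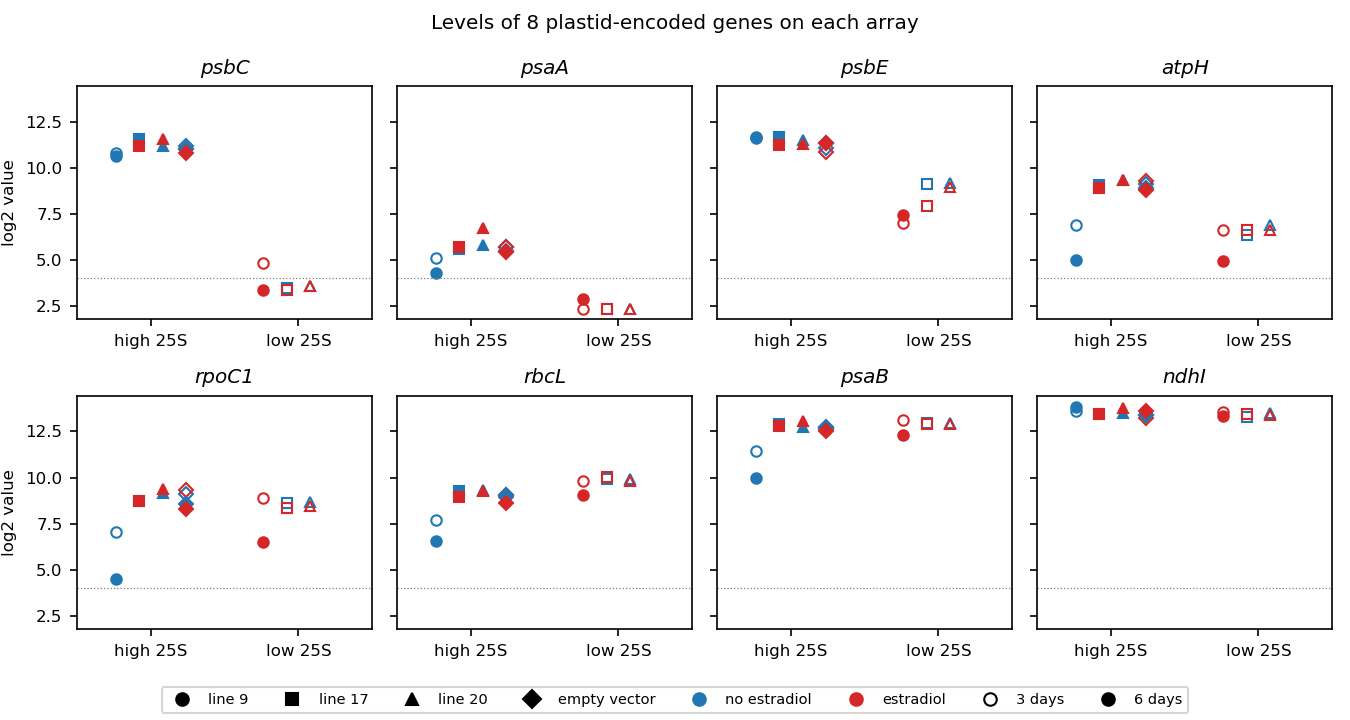
Log2 values of 8 plastid-encoded genes on the 16 arrays, high-25S arrays on the left of each panel and low-25S arrays on the right, with the shape for the line, the colour for estradiol, open symbols for 3 days and filled ones for 6 days, and a dotted line at 4. The values of psbC, psaA and psbE separate by kind of array, those of ndhI do not, and atpH, rpoC1, rbcL and psaB have their lowest or next-lowest value at 6 days in line 9.

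Few nuclear genes of the same complexes could be compared. Of 50 nuclear photosynthesis loci on a list, 8 were on a listed and kept probe set, and 0 passed in any comparison. With 3.45% of all kept probe sets called for the kind of array, a count of 0 in lists this short does not set them apart. For the kind of array their median difference was -0.08 (all kept probe sets 0.06). The 2 with the smallest p there, LHCB4.1 and LHCB4.2 of the light-harvesting antenna, differed by -0.40 ± 0.15 (adjusted p 0.16) and -0.27 ± 0.14 (adjusted p 0.294). Nuclear NDH subunits (3 of 10 kept), plastid ribosomal proteins (2 of 20) and plastid RNA-processing proteins (2 of 19) also had 0 calls, with medians of 0.12, -0.21 and -0.47. Of the last list, AT2G37220 differed by -1.02 ± 0.28 (adjusted p 0.0739) and AT5G42310 by 0.09 ± 0.16. The 4 kept root markers had 0 calls and a median of -0.38, with AT5G44020 at -0.72 ± 0.18 (adjusted p 0.0628). None of 21 nuclear loci for plastid transcription was kept. The 3 mitochondrial genes kept, nad7, nad4 and cox1, had a median difference of 0.00, which is that of nad7. Its probe set lay near the minimum, at 4.39 to 4.51 over all arrays. The other genes differed by -0.50 ± 0.28 (nad4) and 0.26 ± 0.27 (cox1), neither called.

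**Figure D3:**
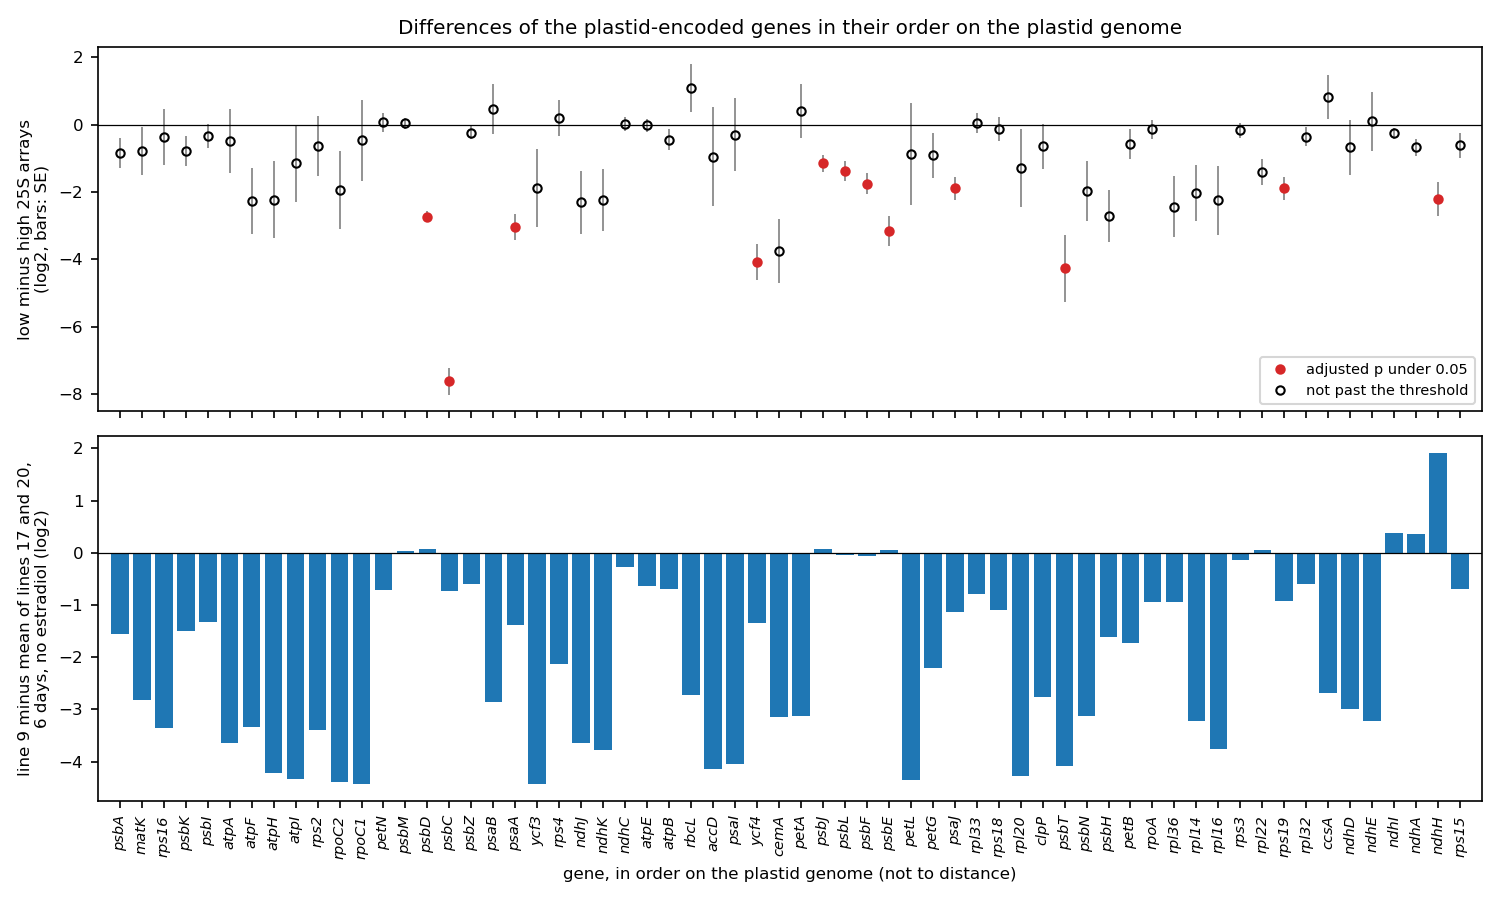
Each position is a plastid-encoded gene in its order along the plastid genome, not to distance. The upper panel plots the log2 difference of low-25S minus high-25S arrays with its SE (filled, adjusted p under 0.05), and the lower panel plots line 9 minus the mean of lines 17 and 20 at 6 days without estradiol, where the run from atpA to rpoC1 lies between -4.43 and -3.33 and the run from psbJ to psbE lies between -0.07 and 0.08.

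Line 9 departed from the other lines within one kind of array. At 6 days without estradiol all 4 arrays were of the high-25S kind. There, 54 of the 62 genes were lower in line 9 than the mean of lines 17 and 20, with a median difference of -1.66 against -0.01 over all kept probe sets. The difference was below -1 for 39 genes, or 62.9% (3.07% of all kept probe sets), and above 1 for ndhH alone, at 1.91 (3.75% of all). Against the empty vector in the same condition, line 9 was lower by more than 1 in 36 genes, or 58.1% (3.28% of all), and higher by more than 1 in ndhH alone (2.75% of all), with a median of -1.46. Both comparisons use the same line 9 array, which has no replicate, so neither carries a test. Lines 17 and 20 against that empty-vector array had 0 genes lower by more than 1 (2.04% and 2.46% of all) and 5 and 3 higher by more than 1 (0.598% and 0.774% of all), with medians of 0.30 and 0.31.

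By group median the polymerase genes (-4.39 over 3) and the ATP synthase genes (-3.49 over 6) stood lowest, though not all of their members did. The polymerase subunit gene rpoC1 read 4.5 in line 9, 8.72 in line 17, 9.14 in line 20 and 8.59 in the empty vector, and rpoC2 read 2.82, 7.13, 7.29 and 6.85 in the same order. The third kept polymerase gene, rpoA, which lies in the ribosomal protein cluster elsewhere on the genome, differed by -0.95 from lines 17 and 20. The 7 neighbouring genes atpA, atpF, atpH, atpI, rps2, rpoC2 and rpoC1 were lower by -4.43 to -3.33. Of the 6 ATP synthase genes, the 4 in that run were the ones below -1. The other 2, atpB at -0.69 and atpE at -0.63, are neighbours of each other.

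Photosystem I had all 6 genes below -1. The assembly factor gene ycf3 differed by -4.43, the small subunit gene psaI by -4.05 and psaB by -2.86. The value of psaI was 4.62 in line 9, 8.75 in line 17, 8.59 in line 20 and 8.12 in the empty vector. In the cytochrome b6f complex 4 of 5 genes were below -1, from petL, a small subunit, at -4.35 to petB, the cytochrome b6 gene, at -1.72.

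Genes of other roles followed. The acetyl-CoA carboxylase subunit gene accD differed by -4.14, the protease subunit gene clpP by -2.77, the intron maturase gene matK by -2.82, and ccsA, a factor for cytochrome assembly, by -2.69. Rubisco's rbcL read 6.58 in line 9, 9.27 in line 17, 9.32 in line 20 and 9.03 in the empty vector. In the ribosome, 4 of 7 small-subunit and 3 of 7 large-subunit genes were below -1, among them rpl20 at -4.28, while rps3 differed by -0.14 and rpl22 by 0.06.

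In photosystem II, 6 of 14 genes were below -1, and its median of -0.67 was the closest to 0 of the 10 groups. Its genes psbE, psbF, psbL and psbJ, which all differed by kind of array, differed here by 0.06, -0.07, -0.04 and 0.08. So did psbD at 0.07 and psbM at 0.03, whereas psbT differed by -4.09 and psbN by -3.13. The NDH genes split as well. The members ndhJ and ndhK differed by -3.64 and -3.77, and ndhD and ndhE by -2.99 and -3.23, while ndhI and ndhA were at 0.38 and 0.35 and ndhH at 1.91. The genes ndhA, ndhH and ndhI lie side by side. On this array 11 genes were within 0.5 of lines 17 and 20 and 39 were lower by more than 1. Some of the lowest read near the floor there, where differences are compressed. Among them were accD (2.57), petL (2.79), rpl20 (2.73), psbT (2.87), psbN (2.31) and ndhK (2.32).

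No kept gene of the nuclear lists was lower by more than 1 on the same array. The 8 nuclear photosynthesis genes lay between -0.63 and -0.06 (median -0.29) relative to lines 17 and 20, and the 3 nuclear NDH genes between -0.92 and 0.01. The median of the last, -0.78, was further from 0 than that of the plastid photosystem II genes. The nuclear RNA-processing and ribosomal protein genes, 2 each, both had a median of -0.24, and the 3 mitochondrial genes lay between -0.98 and 0.09. The 4 kept root markers of 8 listed lay between -0.72 and 2.92 (median -0.08). The part of root tissue in the plastid values was not tested. The array's 25S control, 11.87, was within the range of the high-25S arrays. Its spike-in controls for bioB, bioC and bioD, at 7.80, 8.35 and 12.34, were each under the lowest of the 9 other high-25S arrays, at 8.10, 8.65 and 12.59. Whether that bears on the plastid values was not tested.

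The same line could be followed between days within a kind, because both line 9 arrays without estradiol were high-25S and both with estradiol were low-25S. From 3 to 6 days, 56 of 62 genes were lower at the later day without estradiol (median -1.13) and 45 with it (median -1.0), against medians of 0.00 and -0.04 over all kept probe sets. Genes lower by more than 1 numbered 36 without estradiol (3.32% of all kept probe sets) and 31 with it (3.97%). These pairs share no array, and 27 genes were on both lists. With 36 and 31 of the 62 genes listed, many would be shared even if the pairs were unrelated. Over all kept probe sets 136 were on both (0.993% of all), out of 455 on the first list and 544 on the second. Across the 62 genes, the differences of the pairs had a Pearson r of 0.58, a description over genes measured on the same 4 arrays.

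The shared genes included rpoC1 at -2.56 without and -2.35 with estradiol, atpH at -1.93 and -1.68, and psaI at -2.10 and -1.85. The difference of accD was -1.21 and -2.76, and that of the photosystem II subunit gene psbH was -1.06 and -2.40. At 6 days accD read 2.57 on both arrays, near the floor, so its differences follow from the 3 day values, 3.78 and 5.33. The empty vector, also of 1 kind throughout, gave medians of -0.27 and 0.05 over the same days, with lowest values of -1.02 for psbT and -1.44 for rpl20. The nuclear lists of line 9 gave medians of -0.19 and -0.20 for photosynthesis, -0.45 and -0.28 for NDH subunits, -0.54 and -0.39 for RNA processing and -0.27 and 0.07 for ribosomal proteins, without and with estradiol. The root markers gave -0.28 and -0.39, with a lowest value of -1.55. With 1 array at each end none of these differences has a test.

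At 3 days line 9 differed less. Without estradiol, 21 of its genes were more than 1 below the empty vector, or 33.9% (2.55% of all kept probe sets), and 0 were more than 1 above it (1.48% of all), with a median of -0.50 and accD lowest at -2.96. With estradiol at 3 days, where all 3 lines were low-25S, 5 genes were more than 1 below lines 17 and 20, or 8.06% (4.24% of all), 8 were more than 1 above (2.32% of all), and the median was 0.02. There rpl36, a large-subunit ribosomal protein gene, was lowest at -2.88, and psbC highest at 1.35.

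With the 4 conditions as repeats, and the group means and kind of array in the fit, line 9 against lines 17 and 20 called 0 of the 62 genes in limma after Benjamini-Hochberg adjustment (1 of all kept probe sets, 0.0073%). At an unadjusted p under 0.05 there were 32 of the 62, against 2146 of 13701. This comparison was added after the data were seen. The differences were below 0 for 60 genes, with a median of -0.78. The largest were petL at -2.74 ± 0.58 (adjusted p 0.155), accD at -2.70 ± 0.61 (0.169) and rpoC1 at -2.02 ± 0.62 (0.214), and the positive end held ndhH at 0.37, ndhI at 0.11 and psbC at -0.04. On the high-25S arrays alone the median was -1.67. There line 9 meets lines 17 and 20 only at 6 days without estradiol, so this is the single-array difference given above and not a separate result.

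Lines 17 and 20, which share their kind in each condition, were closer. Line 20 minus line 17 called 0 of 62 genes (0% of all kept probe sets), with 0 of the 62 and 1294 of all at an unadjusted p under 0.05. The median was 0.13, and 50 genes were higher in line 20. The largest differences were petL at 1.20 ± 0.69 (adjusted p 0.674), rpl36 at 1.01 ± 0.81 and accD at 0.80 ± 0.73 on one side, and ycf4 at -0.41 ± 1.20, ndhE at -0.25 and ndhK at -0.20 on the other.

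Inducing the microRNA called no plastid gene. Estradiol minus none in the amiR-tor lines called 0 of 62 at 3 days (0% of all kept probe sets), 0 at 6 days (0.46% of all, of which 0.394% higher and 0.0657% lower) and 0 over both days (2.85% of all, of which 2.22% higher and 0.628% lower), in limma with Benjamini-Hochberg adjustment. At an unadjusted p under 0.05 the counts were 3, 0 and 6 genes, against 1782, 1937 and 3621 of all kept probe sets. The median differences were -0.14, -0.08 and -0.14. The smallest adjusted p of any plastid gene was 0.369, 0.418 and 0.118 in that order.

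The 3 most negative genes over both days had their largest differences in line 9, whose arrays change kind with estradiol. Of these, psbC and psbE also passed for the kind of array and rpl36 did not. Over both days psbC differed by -2.22 ± 1.57 (adjusted p 0.376), rpl36 by -1.87 ± 0.76 (adjusted p 0.159) and psbE by -1.82 ± 0.70 (adjusted p 0.141). Pair by pair, psbC differed by -5.96 and -7.26 in line 9 at 3 and 6 days, by -0.11 and -0.34 in line 17, and by 0.00 and 0.35 in line 20. The leading positive differences over both days were rps16 at 1.11 ± 0.53, rbcL at 0.72 ± 0.51 and psaB at 0.68 ± 0.48. For rbcL the pairs were 2.14 and 2.50 in line 9, 0.12 and -0.34 in line 17, and -0.10 and -0.03 in line 20. At 3 days the next was ndhE at 0.60 ± 0.80. At 6 days they were clpP at 0.92 ± 0.64 and, on the negative side, ndhH at -1.47 ± 0.78.

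Without line 9, whose absence leaves pairs of 1 kind, psbC over both days was -0.03, psbE -0.52, rpl36 -0.74 and rbcL -0.09, none of them called. With the kind of array as a covariate the median over the 62 genes was 0.11 at 3 days, 0.25 at 6 days and 0.23 over both.

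**Figure D4:**
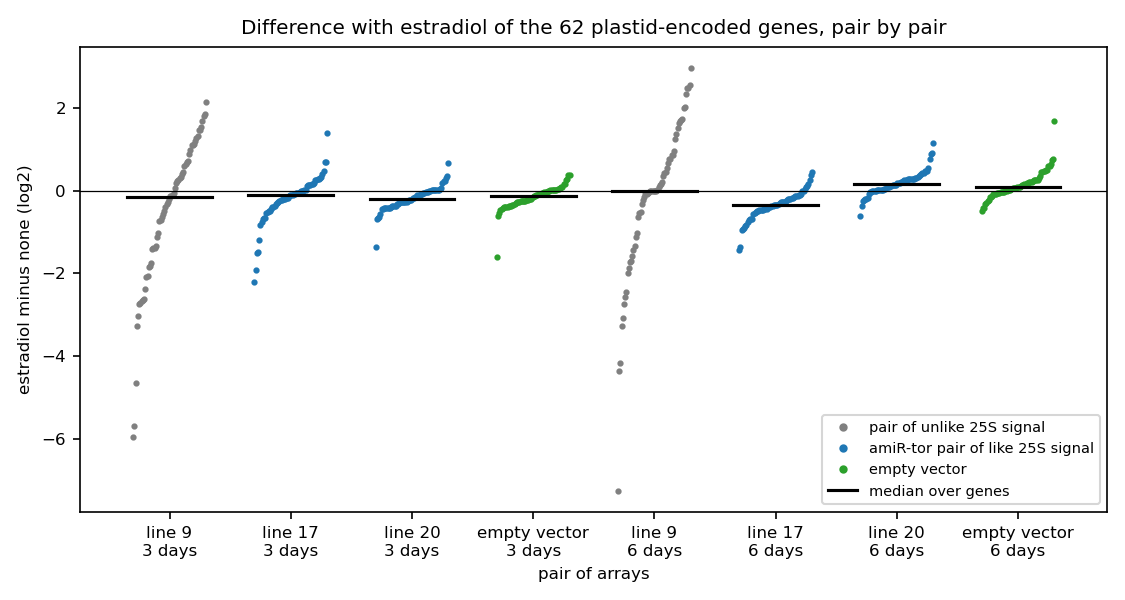
Each point is a plastid-encoded gene, plotted as its log2 difference of the estradiol array minus the untreated array of the same line and day, sorted within a pair, with a bar at the median. The 2 pairs of line 9 join arrays of unlike 25S signal and span -7.26 to 2.97, while the pairs of like signal have medians between -0.34 and 0.17.

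The pairs of like kind had small shifts in both directions. In line 17 the median was -0.11 at 3 days and -0.34 at 6 days, with 54 of 62 genes lower at 6 days. In line 20 it was -0.19 and then 0.17, with 48 genes higher at 6 days. The empty vector gave -0.14 with 43 genes lower and then 0.08 with 40 higher. The 6 day shift was thus of opposite sign in lines 17 and 20. On each day the empty-vector median lay between those of lines 17 and 20, and at 6 days it was smaller in size than either.

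Estradiol in the empty vector called 0 of 62 genes (0% of all kept probe sets), with 0 of the 62 and 111 of all at an unadjusted p under 0.05, a median of -0.02 and adjusted p of 1. The largest differences were psbN at -1.0 ± 1.21, atpA at -0.31 and atpF at -0.29, and rps16 at 0.64, ndhD at 0.44 and ycf3 at 0.42. With 1 array per empty-vector group, the fit gives it the spread of the amiR-tor groups. The difference between induction and estradiol in the empty vector also called 0 of 62 (0.0073% of all), with 0 of the 62 and 418 of all at an unadjusted p under 0.05 and a median of -0.15. It was led by psbC at -2.03 ± 3.13, rpl36 at -1.78 ± 1.53 and psbE at -1.68 ± 1.40, and by rbcL at 0.88 ± 1.02, psbN at 0.82 ± 1.39 and psaB at 0.79 ± 0.96. Their adjusted p were 0.963 to 0.967.

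The days in untreated amiR-tor seedlings, 6 minus 3, called 0 of 62 genes (0% of all kept probe sets), with 2 of the 62 and 928 of all at an unadjusted p under 0.05. The median was -0.01. The largest positive difference was that of psbC at 5.16 ± 2.22 (adjusted p 0.72), then ycf4 at 2.52 ± 1.27 and psaA at 1.97 ± 0.94, and the negative end held rps16 at -0.86 ± 0.76, rbcL at -0.79 ± 0.72 and rpoC1 at -0.67 ± 1.10. Lines 17 and 20 change from low-25S to high-25S between these days and line 9 does not. In lines 17 and 20 psbC differed by 7.58 to 8.07 over the days with and without estradiol, in line 9 by -0.16 and -1.46, and in the empty vector by -0.13 and -0.22. Left to lines 17 and 20 alone, 20 of the 62 genes were called higher at 6 days (1.6% of all kept probe sets) and 0 lower (0.664% of all), with psbC at 7.82 (adjusted p 5.84e-05). There the day and the kind of array cannot be told apart. Of the 62 genes, 8 met the minimum with the help of the high-25S arrays, among them psbC, ycf4 and psaA. For these the minimum favours a higher value at 6 days in lines 17 and 20. The count of 20, which includes psbC, is thus in part fixed by that minimum.

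Untreated amiR-tor lines against the untreated empty vector, over both days, called 0 of 62 genes (0% of all kept probe sets), with 0 of the 62 and 664 of all at an unadjusted p under 0.05. The median was -0.48, and 47 genes were lower in the amiR-tor lines. The largest were psbC at -2.56 ± 2.22, psbN at -2.12 ± 0.98 and atpH at -1.75 ± 1.21, and on the other side rpl32 at 0.54 ± 0.26, rps3 at 0.45 ± 0.20 and ndhA at 0.36 ± 0.30, all with an adjusted p of 1. Without line 9, 1 gene was called lower (0.182% of all) and 0 higher (0.0584% of all). It was psbC at -3.64 (adjusted p 0.00323), from amiR-tor arrays that are low-25S at 3 days and empty-vector arrays that are all high-25S. The gene psbC reached a log2 value of 4 on only 1 low-25S array, so the minimum favours this lower value. Without line 17 or 20 the median was -0.73 at its lowest, and without line 9 it was -0.05.

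The remaining genes of highest mean in their complex did not separate by kind of array. The ATP synthase gene atpE read 14.13 to 14.44 (median 14.36) on the low-25S arrays and 13.71 to 14.38 (median 14.25) on the high-25S arrays. The cytochrome b6 gene petB read 11.00 to 12.15 (median 11.86) and 10.33 to 12.29 (median 11.96). The NDH gene ndhI, which encodes an iron-sulphur subunit, read 13.28 to 13.54 (median 13.42) and 13.25 to 13.85 (median 13.48). Each of the 3 overlapped between the kinds, and the lowest values of atpE and petB were both those of line 9 at 6 days without estradiol.

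The polymerase gene rpoA read 12.06 to 12.44 (median 12.33) on the low-25S arrays and 11.53 to 12.69 (median 12.34) on the high-25S arrays. In the ribosome, rps3 read 12.37 to 13.28 (median 12.94) and 12.37 to 13.39 (median 12.82), and rpl32 read 11.52 to 12.61 (median 12.30) and 11.70 to 12.85 (median 12.33). The gene ccsA read 11.63 to 12.13 (median 11.91) and 9.15 to 11.94 (median 11.73), with its 2 lowest values, 9.15 and 10.52, in line 9 without estradiol at 6 and 3 days. The kinds overlapped for each of these 4.

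Counted over all 62 genes, the lowest of the 16 values lay in line 9 at 6 days for 28 of them without estradiol and 16 with it, and in line 9 at 3 days with estradiol for 13. The highest lay in line 20 at 6 days with estradiol for 25 and in line 17 at 6 days without it for 12. The median Pearson r over the 1891 pairs of genes was 0.50 across 16 arrays and 0.71 across the 10 high-25S arrays, and 0.61 over 54 pairs of neighbours. All pairs share the arrays and their normalization. The 10 high-25S arrays include line 9 at 6 days without estradiol, whose median over the genes, 8.23, lay apart from the 9.82 to 10.79 of the others. The part of that array in the 0.71 was not tested.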

How the data were processed

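RNA of whole seedlings was labelled with the MessageAmp II-Biotin Enhanced kit and hybridised to 16 single-colour ATH1 arrays, per the labels' protocols. The authors deposited GCRMA log2 values, per the submitters' processing notes. The version is not given in the sources used here. These values ran from 2.12 to 15.32. The number of arrays limits the precision. Of 22810 probe sets, 64 controls were set aside, as were those with fewer than 3 arrays at log2 4 or more, and 13701 were kept. Genes came from the platform annotation and the RefSeq table of TAIR10.1, which matched 7333 of them to a locus. Plastid genes were those with a plastid locus tag. 8 probe sets listed with both copies of an inverted-repeat gene were left out of the members. No coordinates are given, since no source names the build behind the probe sets.

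The main model was limma 3.58.1 (R 4.3.3, lmFit then eBayes) over all arrays with 1 mean per group, leaving 8 residual degrees of freedom. Calls needed an adjusted p under 0.05 (Benjamini-Hochberg, over all kept probe sets). The script was tested on simulated data. Arrays were divided at a log2 value of 9 of the 25S control. The members, complexes and lists were chosen with earlier results of these data known. Named are, per comparison, the called genes (up to 10 each way by size) or otherwise the 3 largest differences each way, plus the gene of highest mean in each complex and, in nuclear lists, up to 2 genes of smallest p. Other genes are named by their complex or their place on the genome and were chosen after their values were seen.

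The lines pair the arrays, since the same line gave an estradiol and an untreated array at each day. Between arrays of a line, the deviations from group means had Pearson r of -0.63 to 0.45 in line 9, -0.16 to 0.17 in line 17 and -0.15 to 0.52 in line 20. Alternatives were no filter, a filter at log2 6, quantile normalization, array medians, the kind of array as a covariate, high-25S arrays alone, the actin difference in place of the kind, days averaged per line, line 9 without the kind in the fit, a replicate block by line and each line left out.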

Additional observations from a re-analysis of the deposited data

How the results depend on the processing

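The count of 12 plastid genes lower on low-25S arrays was 5 with no filter and 7 with the actin difference in place of the kind, and 2 to 3 with a line left out. It was 10 with the stricter filter, 12 with quantile normalization or array medians, and 15 with the replicate block by line, under which psbT lost its call (adjusted p 0.051) and 4 genes gained one. The replicate block changed no call in the other comparisons. With a line left out, the untreated 6 minus 3 day count ranged from 0 to 20 and the count for untreated amiR-tor lines against the empty vector from 0 to 1, both highest without line 9. The other comparisons called 0 of the 62 genes under every alternative run. Signs turned for some uncalled values. With the kind of array as a covariate psbC was 0.52 at 3 days, 0.13 at 6 days and 0.32 over both under induction and 0.51 for induction minus empty vector, and from 3 to 6 days ycf4 was -0.20 and psaA -0.05. On high-25S arrays alone psbC under induction at 6 days was 0.25, rpoC1 over the days 0.39 and rbcL 0.69. Over the lines left out, ndhE under induction at 3 days was -0.04 to 1.03, psbC at 6 days -3.80 to 0.00, rbcL over both days -0.09 to 1.13, psbC for induction minus empty vector -3.23 to 0.16, and over the days rpoC1 was -1.23 to 0.28 and rps16 -1.65 to 0.17. For line 9 against lines 17 and 20, psbC was -0.08 to 0.01. Quantities for named genes kept side and sign in 532 of the alternatives, and 29 lost a call, all for the kind of array. The causes were not tested, apart from fewer arrays where a line was left out. High-25S arrays alone could not be fitted for induction at 3 days or over both or for induction minus empty vector, the kind could not be estimated without line 9, and no locus had a second probe set to average. Values within about 2 of the floor of 2.12 have compressed differences, and with 3 arrays a group and 2 kinds of array, small changes of plastid RNA were not detectable. Large ones could also be missed where a group mixes the kinds. The difference of psbC from 3 to 6 days in untreated amiR-tor seedlings, 5.16 ± 2.22, was not called.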

Other observations

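Plastid genes in the inverted repeat are present in 2 copies, and their probe sets were listed with both copies, so they stand outside the 62 genes. The probe set of rpl23, a large-subunit ribosomal protein gene, read 6.66 to 10.40 on the low-25S arrays and 11.42 to 12.37 on the high-25S arrays, with no overlap. Its neighbour rpl2 read 12.26 to 13.02 and 12.90 to 13.35. The small-subunit gene rps7 read 7.23 in line 9 at 6 days without estradiol, against a median of 11.66 on the high-25S arrays, and 8.96 in line 9 at 6 days with estradiol, the lowest of the low-25S arrays. The longer ycf1 read 8.14 and 8.16 on the same arrays, against medians of 10.44 and 9.47. One probe set of rps12 read 5.72 and 7.02 there, against medians of 10.48 and 8.89. The probe sets of ycf2 and ndhB read 2.12 to 2.44 and 2.12 on every array, at the floor.

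Outside the plastid genome, the named genes whose profile was most like the mean over the 62 genes were EXPA7 (Pearson r 0.87), COS1 (0.84) and THX (0.82), each over 16 arrays that share their kind, line and normalization.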
